A study of Mus musculus with 8 samples.

Results

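C1qb, Aif1, Ptprc and S100a8 are genes of microglia and of blood leukocytes, and they were measured in brain RNA by 5 spots of a 2-colour cDNA array. The spots were found by gene symbol. A spot's name was read from the platform annotation 11 places before it, for annotated places up to 20000, a shift that was inferred from the values and is not in the labels. C1qb, Aif1 and S100a8 had 1 spot each and Ptprc had 2, out of 20794 spots in the table and of 12131 spots of 8653 genes that carry a name. The genes were listed with earlier results of these data known.

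Brain RNA came from 4 male mice of 19 weeks with the genotype ADAR-/-/GluR-BR/R, and the reference was pooled brain RNA of wildtype males of that age. These mutants lack the editing enzyme ADAR2, and their GluR-B alleles encode arginine at the site that ADAR2 edits. The series' design counts 4 mice in the pool and the labelling protocol 6 control animals. No source used here gives the strain or says whether blood was flushed from the brains. Every mouse had 2 arrays, 1 with mutant RNA in Cy5 and pool RNA in Cy3 and 1 with the dyes exchanged. The mouse was the replicate (n = 4). The pool is 1 control sample, and the spread between wildtype mice does not enter the tests. The table holds log2 ratios and no spot intensities, so neither the level of a gene nor the labelled tissue could be checked from it.

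The numerator of the deposited ratio is not given, so values are described by dye orientation and none is read as higher or lower in the mutant. Values are log2 ratios minus the median of their array. Averaging both arrays of a mouse gives the mean ratio, the contrast of mutant and pool only where each ratio was taken in the same direction. If all ratios are Cy5 over Cy3, that contrast cancels in the mean ratio, which then holds a difference between the dyes. The calls in the mean ratio below are not told apart between these readings. Where 1 array of a mouse had no value, the other array alone gave that mouse's value. The mean ratio was thus tested for 20595 probes, of which 18797 had values on all 8 arrays. Cfi, Axl, Mrc1 and Pecam1 below hold such values from 1 orientation, and the member spots hold none. Subtracting a mouse's Cy3 value (mutant in Cy3) from its Cy5 value and dividing by 2 gives the swap component, which is the contrast of mutant over pool only if all ratios are Cy5 over Cy3. The disrupted gene Adarb1 differed between the orientations in 2 of its 3 spots, with swap components of -1.23 ± 0.163 and -1.33 ± 0.267 (moderated SE, limma adjusted p = 0.0383 and 0.0424) and -0.10 ± 0.127 in the third (adjusted p = 0.628). The first 2 stood at the 0.0399th and 0.0186th percentile of 18797 probes in the swap component, and the third at the 43.5th. The mean ratio of Adarb1 passed in 1 spot, at 0.70 ± 0.168 (limma adjusted p = 0.0297). In the mean ratio the 3 spots stood, in the same order, at percentiles 88.2, 69.2 and 61.9. No probe, Adarb1 included, passed in the swap component with values as deposited, with a common spread, with runs of 48 spots centred or with any 1 mouse left out. Correlations across all spots ran from 0.224 to 0.401 between arrays with the mutant in Cy5 and from 0.425 to 0.677 between those with the mutant in Cy3, and from 0.313 to 0.413 between the 2 arrays of a mouse.

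Microglia are the resident macrophages of the brain. They make most of the brain's C1q, the complement protein that starts the classical pathway and tags synapses for removal. C1qb encodes the B chain of C1q, which joins the A and C chains in one molecule. Aif1 encodes Iba1, a calcium-binding protein that bundles actin and is the usual histological marker of microglia. Ptprc encodes CD45, the receptor phosphatase of all nucleated blood cells, which opens antigen receptor signalling by acting on Src-family kinases and is present at a low level on microglia. S100a8 encodes the calcium-binding partner of S100a9 in calprotectin, an abundant protein of neutrophils and some monocytes that healthy brain tissue holds little of.

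The 4 genes are used in myeloid cells, where the factor PU.1 binds purine-rich sites around the letters GAGGAA, so the 250 bases before a transcript start of each are shown with that motif. The sequences are from RefSeq (GRCm38.p6), 5′ to 3′ on the gene's own strand, and all 4 genes were found in the table. Starts are the transcript starts of the promoter table, and of the 2 listed for Ptprc the upstream one was used. The gene table draws the outer end of Aif1 and Ptprc farther upstream, so the Ptprc window lies wholly, and the Aif1 window partly, inside the gene bounds given with the values. Capitals mark GAGGAA and the TATA box letters TATAAA on either strand, so a match on the opposite strand reads TTCCTC or TTTATA.
C1qb (chr4:136886201-136886450, minus strand): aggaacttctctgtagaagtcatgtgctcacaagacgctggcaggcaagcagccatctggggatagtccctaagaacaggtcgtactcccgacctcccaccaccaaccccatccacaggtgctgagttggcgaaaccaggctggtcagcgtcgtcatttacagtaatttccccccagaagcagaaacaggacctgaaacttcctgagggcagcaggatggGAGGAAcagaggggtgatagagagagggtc
Aif1 (chr17:35176053-35176302, minus strand): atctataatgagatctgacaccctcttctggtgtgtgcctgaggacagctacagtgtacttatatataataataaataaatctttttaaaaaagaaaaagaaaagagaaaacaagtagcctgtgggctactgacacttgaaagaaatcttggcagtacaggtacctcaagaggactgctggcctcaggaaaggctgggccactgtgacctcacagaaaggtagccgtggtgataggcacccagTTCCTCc
Ptprc (chr1:138175306-138175555, minus strand): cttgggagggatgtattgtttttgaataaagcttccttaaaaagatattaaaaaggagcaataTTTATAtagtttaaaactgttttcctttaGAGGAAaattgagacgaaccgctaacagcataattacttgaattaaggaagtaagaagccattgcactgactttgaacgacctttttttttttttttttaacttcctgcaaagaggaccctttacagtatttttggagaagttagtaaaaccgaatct
S100a8 (chr3:90668821-90669070, plus strand): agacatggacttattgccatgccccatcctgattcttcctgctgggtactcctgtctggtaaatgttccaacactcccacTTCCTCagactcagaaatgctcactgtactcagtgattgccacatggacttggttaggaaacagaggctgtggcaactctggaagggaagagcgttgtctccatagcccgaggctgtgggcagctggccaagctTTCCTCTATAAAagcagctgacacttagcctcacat

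GAGGAA began 30 bases before the listed transcript start of C1qb, 7 before that of Aif1 on the opposite strand, 158 before that of Ptprc (both inside the gene bounds), and 170 and 36 before that of S100a8 on the opposite strand. TATAAA began 30 bases before the listed start of S100a8, directly after a GAGGAA match and without sharing a base with it, and 187 before that of Ptprc on the opposite strand. Among all 32851 listed windows of 250 bases, 23.3% held GAGGAA and 12.4% held TATAAA on either strand. All 4 windows thus held the first motif and 2 the second. The arrays measured no binding, and these matches are a description of the letters.

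C1qb (chromosome 4, 136880126 to 136886200, GRCm38.p6) was the only member above the array median on average, and it was above it on all 8 arrays. With the mutant in Cy5 its spot 16620 stood at 0.41, 0.30, 0.77 and 0.86 in mice 1 to 4, a mean of 0.58 ± 0.273 (SD, n = 4). With the mutant in Cy3 it stood at 1.41, 1.44, 1.42 and 0.90, a mean of 1.29 ± 0.261. Mice 1, 2 and 3 were higher with the mutant in Cy3, while both arrays of mouse 4 lay close together. On its arrays the spot ranked between the 74.5th and the 92.8th percentile. Over both orientations the mean ratio was 0.94 ± 0.13 (moderated SE, n = 4, limma adjusted p = 0.00955), a ratio of 1.92 to the array median, and the mice lay close together at 0.91, 0.87, 1.09 and 0.88. With the numerator unknown, this mean ratio is not read as a change in the mutant. In whole-tissue RNA, a change in the number of cells of a type and a change in the RNA per cell could not be told apart either.

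Aif1 (chromosome 17, 35170986 to 35176083) was below the array median on all 8 arrays. With the mutant in Cy5 spot 14127 stood at -0.62, -0.72, -1.21 and -0.86 in mice 1 to 4, a mean of -0.85 ± 0.256 (SD, n = 4). With the mutant in Cy3 it stood at -1.21, -0.43, -1.42 and -1.19, a mean of -1.06 ± 0.435. Mouse 3 was lowest and mouse 2 nearest to the median on average, and the values of the orientations overlapped. The mean ratio was -0.96 ± 0.166 (limma adjusted p = 0.0131), a ratio of 0.515 to the array median. It did not pass without mouse 3 (adjusted p = 0.0519) or mouse 4 (0.0513).

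Ptprc (chromosome 1, 138062859 to 138175756) gave spots that differed from each other with the mutant in Cy5. Spot 11470 was below the array median on all 8 arrays, at -0.35, -1.39, -0.98 and -1.60 with the mutant in Cy5 (mean -1.08 ± 0.551) and at -1.23, -1.30, -1.11 and -0.54 with the mutant in Cy3 (mean -1.05 ± 0.35). Its orientations overlapped, mouse 1 being nearest to the median in the first and mouse 4 in the second. Spot 5672 stood at -0.19, -0.91, 0.71 and -0.08 with the mutant in Cy5 (mean -0.12 ± 0.664) and at -2.34, -0.75, -1.03 and -1.18 with the mutant in Cy3 (mean -1.33 ± 0.701). It was thus near the median in mice 1 and 4, below it in mouse 2 and above it in mouse 3 in the first orientation, and below it in all 4 mice in the second. The mean ratio was -1.06 ± 0.149 for spot 11470 (limma adjusted p = 0.00962) and -0.72 ± 0.208 for spot 5672 (adjusted p = 0.0489). The call of spot 5672 was lost with arrays brought to a common spread (adjusted p = 0.0858), without mouse 1 (0.118), mouse 2 (0.146), mouse 3 (0.0527) or mouse 4 (0.11), and without values at ratios of small whole numbers (0.269). Spot 5672 held such a ratio on 1 array, mouse 3 with the mutant in Cy3, and spot 11470 on 1, mouse 3 with the mutant in Cy5. Without such ratios mouse 3 entered with its other orientation alone, and the mean ratio of spot 5672 was -0.53. That setting thus mixes orientations between mice. No source used here tells which parts of the transcript the spots cover.

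S100a8 (chromosome 3, 90669071 to 90670034) was the farthest from the array median. Spot 2694 stood at -0.47, -1.49, -1.69 and -1.57 with the mutant in Cy5, a mean of -1.31 ± 0.561 (SD, n = 4), and at -1.11, -1.48, -2.02 and -2.27 with the mutant in Cy3, a mean of -1.72 ± 0.521. Mouse 1 was nearest to the median in both orientations, and mice 3 and 4 stood at -1.57 or lower on each of their arrays. The mean ratio was -1.51 ± 0.225 (limma adjusted p = 0.01), a ratio of 0.35 to the array median, and stood at the 2.12th percentile of all probes.

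**Figure D1:**
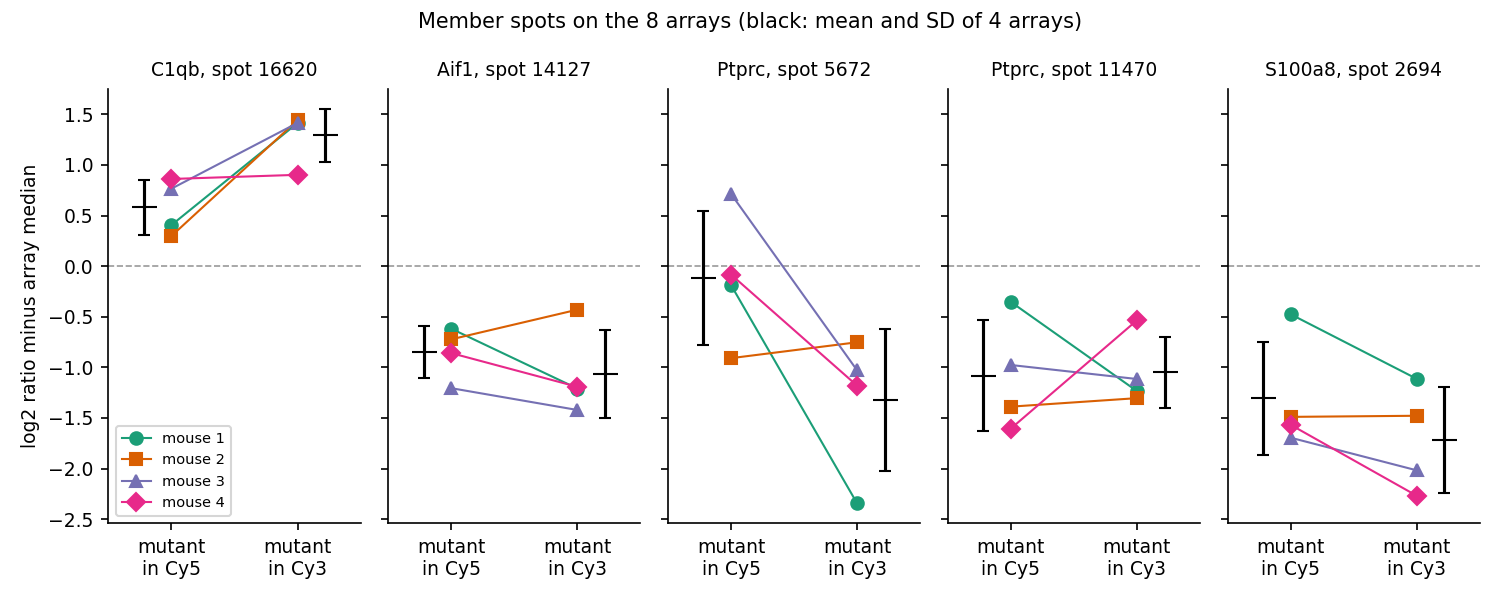
Log2 ratio minus the array median (vertical axis) of the 5 member spots with the mutant in Cy5 and in Cy3; lines join the 2 arrays of a mouse, and black bars give the mean and SD of 4 arrays. C1qb lies above 0 on all 8 arrays (0.30 to 1.44), Aif1, Ptprc spot 11470 and S100a8 lie below it on all 8, and Ptprc spot 5672 lies above it on 1 array.

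All 5 member spots passed the limma test in the mean ratio, where 30.4% of 20595 probes passed, 17.0% above and 13.3% below 0. With ratios as deposited, without subtraction of array medians, the 5 passed with the same signs, while positive calls fell from 56.1% to 37.4% of all calls, and the median over all probes went from -0.09 to -0.25. Of 18797 probes with 8 values, 13.1% were above the array median on all arrays and 8.69% below it on all. With only the 4 arrays that carry the mutant in Cy3, the 5 spots passed as well, where 34.3% of probes did. With only the 4 arrays that carry the mutant in Cy5, none of the 5 passed (lowest adjusted p = 0.0739), and neither did any other probe, with 4748 probes at an unadjusted p below 0.05.

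The complement gene C1qb and the other members differed on every array. C1qb exceeded the mean of Aif1, Ptprc and S100a8 by 0.86, 1.42, 1.78 and 1.95 with the mutant in Cy5 in mice 1 to 4, and by 2.78, 2.42, 2.92 and 2.34 with the mutant in Cy3. The difference was larger with the mutant in Cy3 in each mouse, and the orientations did not overlap. Over both orientations it was 2.06 ± 0.235 (SD, n = 4 mice). This difference cannot move with the array median, and it is a description without a test, since the genes were known to differ in sign when they were listed. By gene, C1qb exceeded Aif1 by 1.90 ± 0.394, Ptprc by 1.83 ± 0.138 and S100a8 by 2.45 ± 0.558.

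In the swap component, the contrast of mutant over pool if ratios are Cy5 over Cy3, no member passed, where 7.84% of 18797 probes did. C1qb stood at -0.36 ± 0.138 (95% interval -0.69 to -0.02, limma adjusted p = 0.145), with the mice at -0.50, -0.57, -0.32 and -0.02. Ptprc spot 5672 stood at 0.61 ± 0.207 (0.10 to 1.11, adjusted p = 0.114), with the mice at 1.08, -0.08, 0.87 and 0.55. S100a8 stood at 0.21 ± 0.121 (-0.09 to 0.50, adjusted p = 0.298), Aif1 at 0.11 ± 0.125 (-0.20 to 0.41, adjusted p = 0.597) and Ptprc spot 11470 at -0.02 ± 0.177 (-0.45 to 0.42, adjusted p = 0.958). On this reading the mutant would lie at 0.782 times the pool for C1qb and at 1.52 times for Ptprc spot 5672. It would lie at 0.988 times for Ptprc spot 11470, 1.15 times for S100a8 and 1.08 times for Aif1. The intervals are not adjusted for the number of probes, and those of Aif1, S100a8 and Ptprc spot 11470 include 0. With runs of 48 spots centred the swap component of C1qb was -0.07 and that of Ptprc spot 5672 was 0.48. Across all probes, 77.3% of those with a positive mean ratio had a negative swap component and 69.8% of those with a negative mean ratio had a positive one, and C1qb and 3 of the other 4 spots had opposite signs too. The middle 50% of values spanned 0.764 to 0.986 on arrays with the mutant in Cy5 and 1.32 to 1.97 on those with the mutant in Cy3. Brought to a common spread, the swap component was -0.11 for C1qb, 0.37 for Ptprc spot 5672, -0.35 for spot 11470, -0.17 for Aif1 and -0.20 for S100a8.

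**Figure D2:**
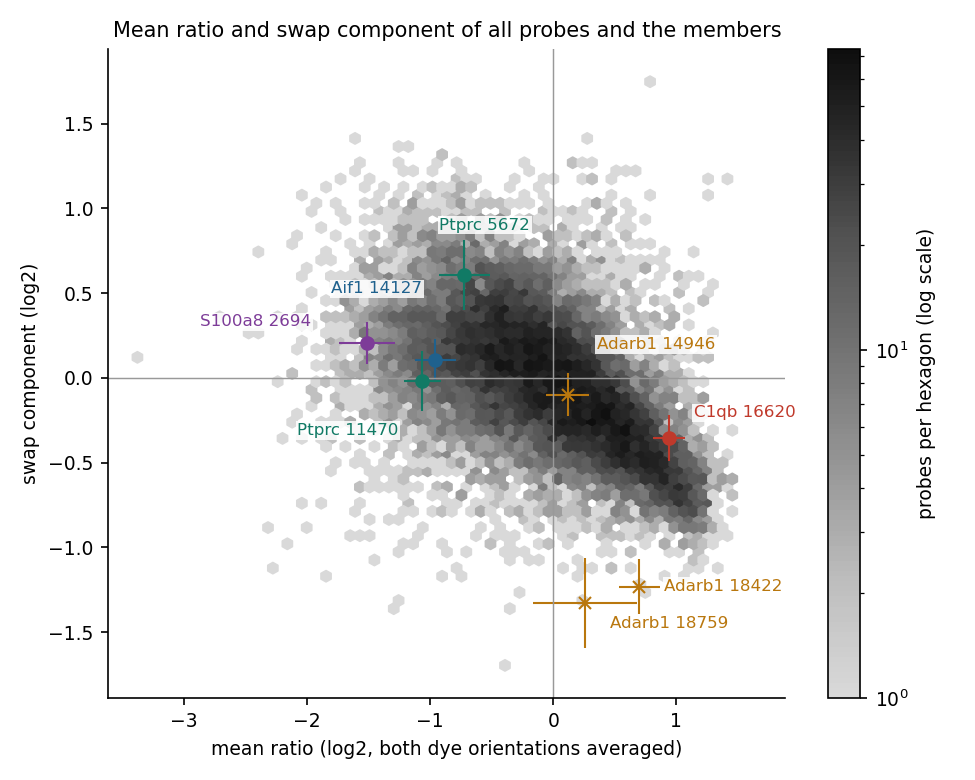
Mean ratio (horizontal axis, log2) and swap component (vertical axis, log2) of 18797 probes, shaded by their number on a log scale, with the member spots and the 3 spots of Adarb1 as points with moderated SEs. The member spots lie within the main cloud, C1qb toward its right and S100a8 toward its left, while Adarb1 spots 18422 and 18759 lie below it.

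The mean ratios of C1qb and Aif1 lay near those of the spots beside them in the table. The spots were divided in table order into 434 runs of 48, and no source used here gives the physical layout. The run of Aif1 had a median mean ratio of -0.85, the 2nd lowest of all runs, and in it 36 of 47 tested spots were negative. The run of C1qb had a median of 0.58, the 6th highest, and in it 41 of 47 were positive. The runs of S100a8 (-0.24) and of Ptprc spots 5672 (-0.18) and 11470 (-0.41) lay nearer to the median of all runs, -0.11.

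Within its run, Aif1 had 17 spots below it and 29 above, and C1qb had 36 below and 10 above. S100a8 had 2 below and 45 above. Ptprc spot 11470 had 3 below and 43 above, and spot 5672 had 6 below and 40 above. With each run centred on its median in each array, the mean ratio of Aif1 was -0.17 (limma adjusted p = 0.421) and that of C1qb 0.31 (adjusted p = 0.134), and neither passed. Ptprc spot 5672 was at -0.51 (adjusted p = 0.135) and did not pass either. S100a8 kept -1.33 (adjusted p = 0.0187) and Ptprc spot 11470 -0.72 (adjusted p = 0.0311), where 21.4% of probes passed. C1qb then exceeded the mean of the other members by 1.02 in place of 2.06. The part of the table position in the values was not tested further.

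**Figure D3:**
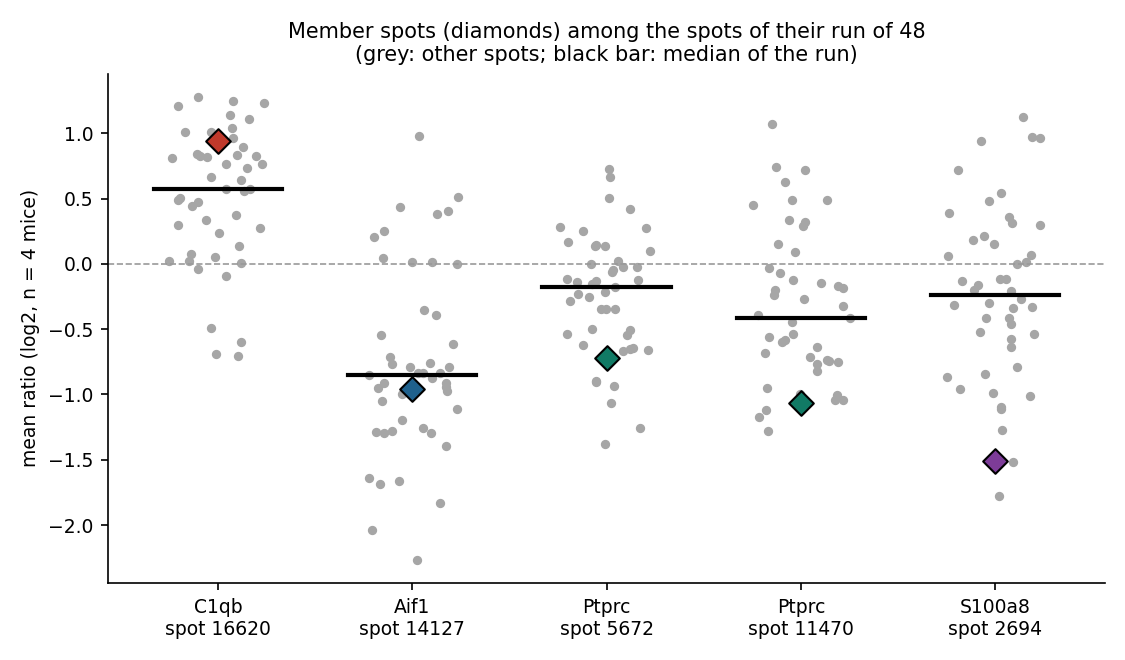
Mean ratio (vertical axis, log2, n = 4 mice) of the member spots (diamonds) and of the other spots in their runs of 48 (grey), with the median of each run as a black bar. Aif1 and C1qb lie near spots of like values, with run medians of -0.85 and 0.58, whereas S100a8 lies at the low end of its run.

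Partners of the members were measured on the same arrays. Genes with several spots were averaged for the lists below, and 29.1% of 8605 genes passed in the mean ratio, 17.5% above and 11.6% below 0. Calls over all genes numbered 2505, and 1742, 1164, 1215 and 1415 without mouse 1, 2, 3 and 4 in turn. They numbered 2481 as deposited and 1952 with runs centred. Changes in the list counts below stand beside these changes over all genes. C1qa and C1qc, which encode the other chains of C1q, did not pass. C1qa stood at 0.23, -0.99, -0.11 and 0.44 with the mutant in Cy5 and at 0.48, 0.25, -0.41 and -0.07 with the mutant in Cy3. Its mean ratio was -0.02 ± 0.177 (limma adjusted p = 0.931 over probes). C1qc had a mean ratio of 0.27 ± 0.239 (adjusted p = 0.42), with mice 1 and 2 above the array median on all their arrays and mouse 3 below it on both. C1qb was above C1qa and C1qc on all 8 arrays, by 0.96 ± 0.393 and 0.67 ± 0.65 (SD, n = 4 mice), a difference that was not tested.

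S100a9, the other chain of calprotectin, had spots that disagreed. Spot 4889 stood at -1.07 ± 0.258 (limma adjusted p = 0.0301), with -0.06, 0.04, -0.69 and -1.26 with the mutant in Cy5 and -1.13, -1.42, -1.39 and -2.65 with the mutant in Cy3, and its swap component was 0.58 (adjusted p = 0.0463). Spot 18858 stood at -0.15 ± 0.165 (adjusted p = 0.514). It stood at -0.17, 0.19, 0.29 and 0.47 with the mutant in Cy5 and at -0.80, -0.75, 0.11 and -0.52 with the mutant in Cy3, on both sides of the array median. The S100a9 gene average, -0.61 ± 0.146 (adjusted p = 0.0291 over genes), thus joins a spot that passed and a spot that did not.

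The complement list had 13 of 22 genes tested, 2 called positive and 2 negative. C2, a protease of the classical pathway, stood at 1.07 ± 0.165 beside C1qb, with means of 0.39 with the mutant in Cy5 and 1.76 in Cy3. Hc, the complement component that starts the membrane attack complex, stood at -1.26 ± 0.269 and Cfi, a protease that restrains the cascade, at -1.53 ± 0.406. The list's median was -0.23, and that of all genes -0.02. Its calls numbered 2 in place of 4 without mouse 2, without mouse 3 or with runs centred. In CD45 and Src-family signalling 6 of 10 genes were tested. Src, a kinase, stood at 0.76 ± 0.138 and Csk, the kinase that restrains it, at 0.42 ± 0.123, both called, Csk at the edge of the threshold (limma adjusted p = 0.049997), and Ptprc was the only negative call. With runs centred neither kinase passed, Src at 0.40 (adjusted p = 0.0726) and Csk at 0.13 (adjusted p = 0.467), and without mouse 2 the list had 1 call. Fgr, a myeloid Src-family kinase, had -0.87 ± 0.326 and did not pass (adjusted p = 0.0957). The list's median was 0.03.

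Of 28 microglia markers 14 were tested, with 3 positive and 4 negative calls and a median of 0.000542. Gpr34, a receptor of microglia, was positive at 0.99 ± 0.113 and, unlike C1qb, had like values in both orientations, between 0.85 and 1.09 on the 8 arrays, with a swap component of -0.01 and a run median of 0.04. Ctss, a lysosomal protease, was the third positive call (0.54 ± 0.153). Aif1 and Ptprc were joined on the negative side by Trem2, a lipid receptor of microglia (-0.77 ± 0.124), and Irf8, a factor that myeloid cells require (-0.50 ± 0.13). Tyrobp, the signalling partner of Trem2, had values on 6 arrays (-4.97 to 0.56) and none in mouse 4, and was not tested. Csf1r, Cx3cr1 and Itgam had no named spot. Microglia calls numbered 4 in place of 7 with runs centred. Of 19 genes of activated microglia 11 were tested, with 3 positive and 4 negative calls. Apoe, the lipid carrier that astrocytes make as well, stood at 0.98 ± 0.127 and the protease Ctsb at 0.64 ± 0.119. The means of Apoe were 0.35 with the mutant in Cy5 and 1.61 in Cy3. Cd9, a tetraspanin, had -0.87 ± 0.233 and was called, and Axl, a receptor for dying cells, had -1.33 ± 0.452 and was not (adjusted p = 0.0756). The list's median was -0.52, and its calls numbered 4 in place of 7 without mouse 1, mouse 2 or mouse 3.

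Of 19 neutrophil genes 11 were tested, with no positive call and 3 negative ones, S100a8, S100a9 and the antimicrobial peptide Camp (-0.58 ± 0.145), and a median of -0.45. At the other end stood Mmp9 (0.27) and Ngp (0.02), which did not pass, and Prtn3, a granule protease, had -0.62 ± 0.207 (adjusted p = 0.0726). All 14 genes of the S100 family list were tested, with no positive and 3 negative calls, S100a8, S100a9 and S100a4 (-0.70 ± 0.174), and a median of -0.22. S100a11 and S100a6 had 0.32 and 0.26 and did not pass. Neutrophil calls numbered 1 without mouse 1, mouse 2 or mouse 3, and 5 as deposited or with runs centred. S100 calls numbered 1 without mouse 1, mouse 2 or mouse 4, and 5 as deposited.

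Among lymphocyte genes, 8 of 18 of T and NK cells were tested, with no positive and 2 negative calls, Cd247, a chain of the T cell receptor complex (-0.87 ± 0.127), and the protease Gzma (-0.73 ± 0.182). Of 9 B cell genes 4 were tested. Cd22, an inhibitory receptor, stood at -1.64 ± 0.161 and the kinase Blk at -0.90 ± 0.123, both called, while Cd79b (-0.65 ± 0.199) and Ms4a1 (-0.64 ± 0.33) did not pass. Of 13 monocyte and macrophage genes 4 were tested, and 1 was called, the scavenger receptor Msr1 (-0.68 ± 0.194). Marco had -0.51, Mrc1 -1.21 ± 0.501 and Lyz2 0.01, and none of these passed. None of 6 tested MHC class II genes of 8 was called, from -0.49 for H2-DMb1 to 0.48 for H2-DMa, but 1 was as deposited and 2 were with runs centred. T and NK calls numbered 1 and monocyte and macrophage calls 0 without mouse 1, mouse 2 or mouse 4, and B cell calls 1 with runs centred.

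Over the 10 lists 84 of 150 genes were tested, 9 called positive and 18 negative, with a median of -0.25. The called share, 32.1%, was near the 29.1% of all genes. With runs of 48 spots centred 8 were positive and 16 negative, where 22.7% of all genes passed. The calls numbered 13 without mouse 2 and 17 without mouse 1 or mouse 3, against 27 with all mice. Calls over all genes fell too, from 2505 of 8605 to 1164 of 8614 without mouse 2. They were 1742 of 8619 without mouse 1 and 1215 of 8615 without mouse 3. In the swap component 1 list gene was called positive and 2 negative of 79, where 7.9% of 8119 genes passed. These were Cfb (0.55, limma adjusted p = 0.0483), C2 (-0.68, adjusted p = 0.0297) and Apoe (-0.63, adjusted p = 0.034). Among markers of other cells, those of astrocytes, oligodendrocytes and neurons had mostly positive mean ratios, as C1qb had. Of tested astrocyte, oligodendrocyte and neuron genes 5 of 8, 4 of 6 and 4 of 8 were positive and called in the mean ratio. Their medians were 0.72, 0.64 and 0.54, and 1 gene was negative and called, the neuron gene Gad1. In the swap component 2 of 8, 4 of 6 and 3 of 7 were called, all negative, where 7.9% of all genes passed. No gene passed in it as deposited or with any 1 mouse left out. In the mean ratio blood cell genes had 2 positive and 3 negative calls of 6, among them Hba-a1 (0.94) and Alas2 (-1.24) of red cells. Endothelial genes had 1 and 1 of 4, Cdh5 (0.82) and Pecam1 (-1.51). Neuron calls numbered 2 in place of 5 without mouse 2 and 3 without mouse 3, and oligodendrocyte calls 2 in place of 4 without mouse 3. Blood cell calls numbered 2 in place of 5 without mouse 2, without mouse 3 or with runs centred and 3 without mouse 4, and endothelial calls 1 in place of 2 without mouse 2 or mouse 4. Their part in the values of the members was not tested.

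**Figure D4:**
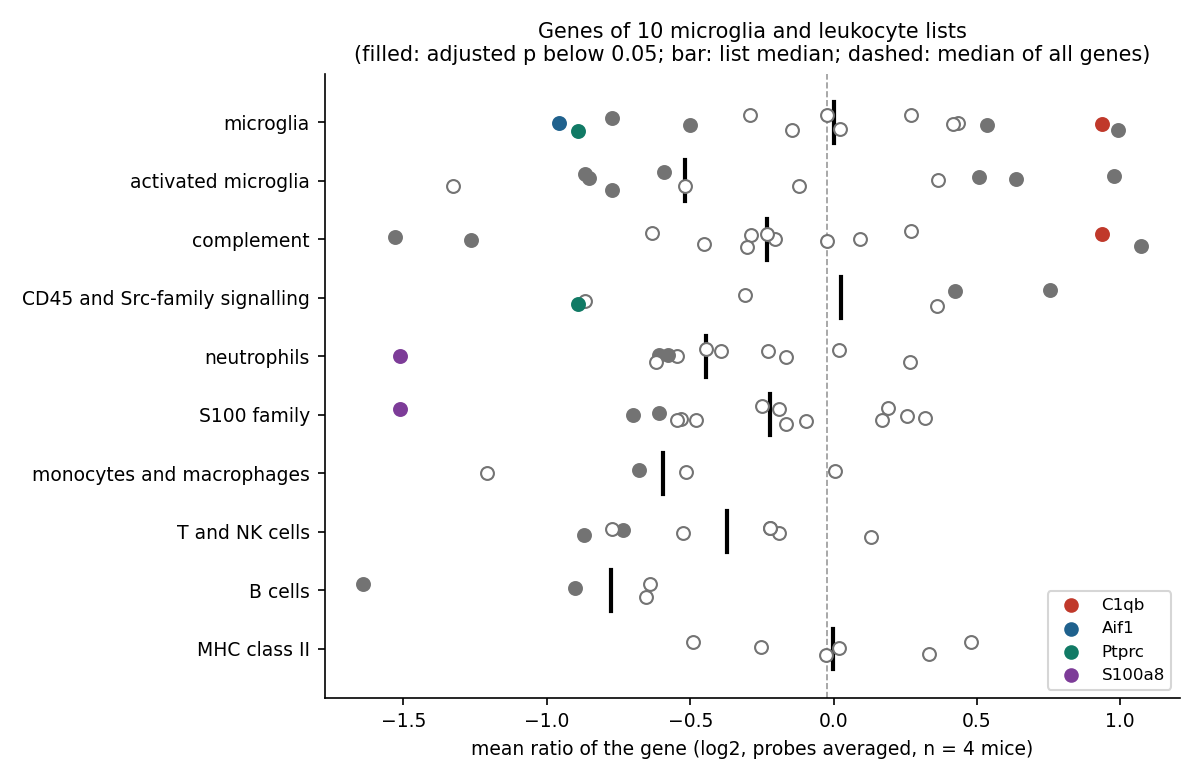
Mean ratio (horizontal axis, log2, probes of a gene averaged, n = 4 mice) of the tested genes of 10 microglia and leukocyte lists; filled points passed the limma test at an adjusted p below 0.05, bars are list medians and the dashed line is the median of all genes. Calls lie on both sides for microglia, activated microglia, complement, and CD45 and Src-family signalling. They lie on the negative side for neutrophil, S100, monocyte and macrophage, T and NK, and B cell genes, and MHC class II genes have none.

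The genes whose 8 array values were nearest to those of C1qb, by the root mean square difference among 8119 genes with 8 values, were Map1lc3a (0.113), Mrpl18 (0.12) and Car2 (0.126). The median gene differed from C1qb by 1.15. Nearest to Aif1 were Pold4 (0.238), Rin3 (0.245) and Fam205c (0.259), nearest to Ptprc were Tspan18 (0.317), Afp (0.324) and Wdr74 (0.328), and nearest to S100a8 were Arl3 (0.264), 1190005I06Rik (0.293) and Trim47 (0.322). No member was among the nearest genes of another. Aif1 differed from Ptprc by 0.546 and from S100a8 by 0.704, and C1qb from the others by 1.99 to 2.57.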

How the data were processed

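The authors deposited log2 ratios of the 2 channels of 8 arrays. The log2 scale and 1 additive constant per array were inferred from the deposited values, since many recur at ratios of whole numbers written to 3 decimals. No source used here gives the scanner, the image software or how background and dyes were handled. Empty values (221 to 553 per array) and codes for an empty denominator (1 to 30) were missing, which left 20211 to 20559 of 20794 values; all value columns were used. The number of mice and arrays limits the precision.

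Array medians were subtracted, because the origin of the constants is unknown, and the median deposited log2 ratio was -0.15, -0.03, -0.0045 and -0.03 in mice 1 to 4 for the mutant in Cy5, and -0.57, -0.28, -0.13 and -0.09 with the mutant in Cy3. Scale, centring rule and numerator of the ratio are not given; the scale is inferred, and the others stay unknown. An intercept was fitted with lmFit and eBayes of limma 3.58.1 under R 4.3.3, which tested 4 mouse values against 0, with Benjamini-Hochberg adjustment over all probes, or all genes for the lists, and a threshold of 0.05. The fits were tested on simulated data. Moderated SEs borrow spread from all probes.

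The annotation gave 12771 spots 1 symbol, none several and 8023 none, and all 12771 matched the RefSeq gene table (GRCm38.p6) by gene identifier. Members and lists were chosen with earlier results of these data known. The rule for names took every member spot, 3 nearest genes per member, up to 4 genes per list and a few named partners; other called genes, and Gpr34's and S100a9's spots, were given after their values were seen, and markers of other tissues are mostly counts. Alternatives were values as deposited, a common spread, single orientations, probes with 8 values, whole-number ratios left out (up to 10, within 0.001 on the log2 scale), runs of 48 spots, the mouse as a random block, no moderation, each mouse left out, medians of probes and names at the same spot number. Sets of mice and runs for lists were added after the data were seen.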

Additional observations from a re-analysis of the deposited data

Results flagged for a closer look

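Of 20 sets of 4 values of the member spots (each orientation, the mean ratio and the swap component by mouse), 2 held a value far from the other 3, where chance gives about 1 in 20. C1qb with the mutant in Cy3 stood at 0.902 in mouse 4 and between 1.41 and 1.44 in the others. S100a8 with the mutant in Cy5 stood at -0.475 in mouse 1 and between -1.69 and -1.49 in the others. Without mouse 4 the mean ratio of C1qb was 0.96 (limma adjusted p = 0.0414), and without mouse 1 that of S100a8 was -1.75 (adjusted p = 0.0307).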

How the results depend on the processing

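Of the 5 member spots called in the mean ratio, 5 passed as deposited, with the mutant in Cy3 alone, with the mouse as a random block and over probes with 8 values, and 4 with a common spread or whole-number ratios left out. The number was 3 without moderation (S100a8 adjusted p = 0.0536), 2 with runs of 48 spots centred, 2 for names at the same spot number, 0 with the mutant in Cy5 alone and 0 from mice 1 and 2 or mice 3 and 4 alone; with each mouse left out it was 3 to 4. Aif1 lost its call without mouse 3 (adjusted p = 0.0519) and without mouse 4 (0.0513), at values of -0.84 and -0.93. At the same spot number the spots for Aif1 and C1qb, in the same runs as those used, passed at -1.20 and 1.21, and that for Ptprc spot 11470 turned to 0.49. No member passed in the swap component in the settings where it was fitted (not in single orientations, nor for Ptprc with whole-number ratios left out; lowest adjusted p = 0.0546, C1qb at the same spot number). There the sign turned for S100a8 with a common spread (-0.20) and at the same spot number (-0.034), for Aif1 likewise (-0.17 and -0.13), for Ptprc spot 5672 at the same spot number (-0.28), and for spot 11470 as deposited (0.09), from mice 1 and 2 alone (0.20) and without mouse 4 (0.16).

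Probes called in the mean ratio numbered 6256, 3572 without moderation, 0 from the Cy5 orientation (4748 with unadjusted p below 0.05), 0 from mice 1 and 2 or 3 and 4 alone (7938 and 7565), and 2483 to 3931 with each mouse left out (3931 without mouse 1, 2545 without mouse 2, 2483 without mouse 3 and 3216 without mouse 4). In the swap component they numbered 1473, 2293 without whole-number ratios, 3149 with the random block, 520 without moderation, and 0 as deposited, with a common spread, with runs centred, from mice 1 and 2 or 3 and 4 alone and with each mouse left out (2772 to 5785 at an unadjusted p below 0.05). C1qb exceeded the other members by 1.5 with the mutant in Cy5, 2.62 in Cy3 and 1.02 with runs centred, and by 1.96 to 2.14 with each mouse left out. Of 84 list genes 27 were called, 31 as deposited, 28 with medians of probes, 24 with runs centred and 13 to 19 with each mouse left out (13 without mouse 2, 17 without mouse 1 or mouse 3). Of all genes 2505 were called, 2481 as deposited, 2545 with medians of probes, 1952 with runs centred and 1164 to 1742 with each mouse left out. Spot intensities were not used here, so signal over background gives no limit for single spots. The cause of these changes was not tested.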
